A study of Mus musculus with 10 samples.

Results

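The 44 cell cycle and mitosis genes described here were chosen by name, as genes known for DNA synthesis, for passage through G1 and for mitosis, and were kept where at least 1 count was listed in 5 or more of the 10 mice. All 44 of 44 met that rule, of 29564 genes listed in all, and all 44 also met the stricter filter used for testing (at least 1 count in 9 of 10 mice), which left 13296 genes. RNA came from left ventricular (LV) tissue of male wild-type C57BL6 mice (C57BL/6J in the study's methods), with 5 control mice, TT-583 to TT-587, and 5 mice of the HFD+mTAC group, TT-588 to TT-592, and one library per mouse. HFD+mTAC mice received a high-fat diet with 60% of kilocalories from fat and a moderate transverse aortic constriction, an operation at 11 weeks of age in which a narrowed aortic arch raises the pressure the ventricle works against. Control mice ate chow with 10% of kilocalories from fat and were not operated on, so that the diet and the operation cannot be told apart. The label on each of the 10 samples gives daily vehicle at 10 mL/kg over 6 to 9 weeks, in words that name only the HFD+mTAC mice, and the age at collection is not given in the sources used here.

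A dividing cell passes from G1, in which D-type cyclins with Cdk4 and Cdk6 free E2F transcription factors from the pocket proteins, into S phase, in which the MCM helicase opens the DNA for copying, and then through G2 into mitosis, driven by Cdk1 with cyclins A and B and ended by the anaphase-promoting complex with Cdc20. Genes of S phase and mitosis are transcribed mainly in cycling cells, whereas many G1 regulators are also transcribed in cells that do not divide. Adult cardiomyocytes rarely divide, and fibroblasts, endothelial cells and immune cells of the heart retain the ability to do so. In bulk tissue, fewer cells of a type and less RNA per cell cannot be told apart.

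Total estimated counts were 34.17 to 53.67 M per control mouse and 35.76 to 46.72 M per HFD+mTAC mouse, of which 43.78 to 52.66% came from the mitochondrial genome. On the genes tested, 12.65 to 21.07 M counts remained in controls and 12.86 to 16.88 M in HFD+mTAC mice (two-sided exact permutation test, p = 0.198). On the first principal component (26.9% of the variance), mice of both groups lay at both ends. Control TT-587 (27.49) and HFD+mTAC mouse TT-591 (24.81) were at one end, and TT-588 (-22.21), TT-589 (-19.03) and control TT-585 (-18.96) at the other. Control mice TT-583 and TT-584 had the lowest mitochondrial shares (43.8 and 44.04%). They also had the highest scores on the second component (15.6%), at 20.65 and 23.54, against 8.22 in the next mouse. The groups did not overlap on this component. The lowest control score was 0.19 (TT-587) and the highest HFD+mTAC score was -3.63 (TT-592), so TT-583 and TT-584 lay at the control end. For several counts and medians, the value without TT-583 and TT-584 is also given. The ventricular myosin light chain Myl2 was abundant (58870 TPM on average in controls), and the atrial markers Myl7 and Sln did not pass the filter on low counts. All TPM values in this text are the deposited ones rescaled to the same total over the genes tested in every mouse. Across all 13296 genes, 8 differed between the groups at an adjusted p under 0.05 (0.0602%), by edgeR's quasi-likelihood test with Benjamini-Hochberg adjustment.

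None of the 44 genes was among those 8, and the smallest adjusted p of a cell cycle gene was 0.0895. By DESeq2 2 of the 44 had an adjusted p under 0.05 (Cdk6 and Cdc20), and by limma on TPM 0 had. Of all 13296 genes, DESeq2 called 120 at that threshold and limma 1. The direction of the differences was uneven. In HFD+mTAC mice, 37 of the 44 genes had a higher mean and 7 a lower one, with a median log2 fold change of 0.60, where the median of all genes tested was 0.00. Without TT-583 and TT-584, 36 were higher and 8 lower, and the median of the 44 was 0.35. At an unadjusted p under 0.05, 24 of the 44 (54.5%) were higher and 0 were lower, against 4.54% higher and 3.72% lower of all genes. Of these 24, 16 act in mitosis, 5 in DNA synthesis and 3 in the control of G1. Groups did not overlap for 2 genes, Cdk6 and Cdc20, both higher in HFD+mTAC mice, whereas 1.08% of all genes did not overlap in that direction. Genes measured in the same 10 mice are not independent observations.

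**Figure D1:**
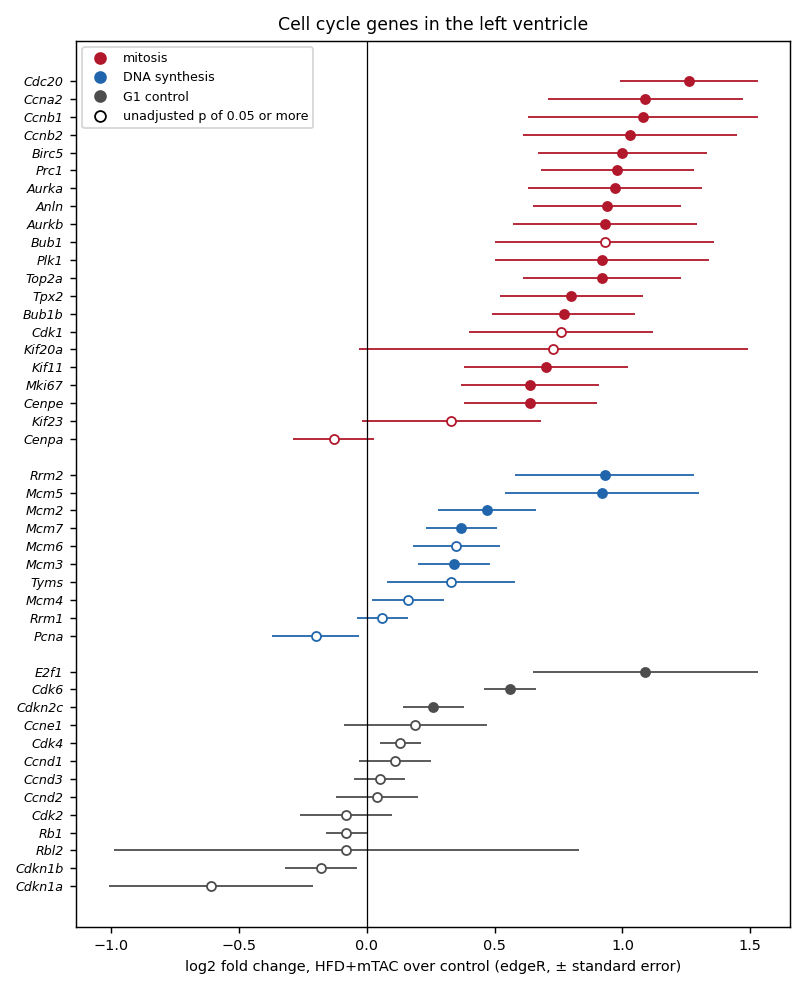
Log2 fold change of each of the 44 genes, HFD+mTAC over control, with bars for ± 1 standard error from edgeR (5 mice per group) and colors for the stage of the cycle. Filled circles have an unadjusted p under 0.05 (16 mitosis, 5 DNA synthesis and 3 G1 genes), and no gene had an adjusted p under 0.05.

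The stages differed in their median. The 21 genes of mitosis had a median log2 fold change of 0.92, and 20 of them were higher in HFD+mTAC mice. The 10 genes of DNA synthesis had a median of 0.35, with 9 higher, and without TT-583 and TT-584 a median of 0.16, with 7 higher and 3 lower. The 13 genes of G1 control had a median of 0.05, with 8 higher and 5 lower. Without TT-583 and TT-584, Ccnd2 (-0.11) moved to the lower side, and Cdkn1a (0.30) and Rbl2 (0.21) moved to the higher side. No test of the difference between the stages was made, since the genes of each were chosen with earlier results of these data known.

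Promoters are shown for 6 genes because many mitosis genes share short letters before their start site that bind the factors of cell cycle transcription. A CCAAT box binds NF-Y, a cell cycle homology region (CHR) binds the MuvB core of the DREAM complex, and E2F sites bind E2F factors. The letters searched were CCAAT for the first, TTTGAA or TTCGAA for the second, and TTTCGCGC, TTTGGCGC, TTTCCCGC or TTTGCCGC for the third, on both strands of the 250 bases before the start, and E2F matches may overlap each other. RefSeq promoters on GRCm38.p6 matched 36 of the 44 genes, and Ccna2, Aurkb, Kif20a, Tpx2, Mcm4, Ccnd1, Ccnd2 and Rb1 had no entry. Below are the last 150 bases before the start of transcription, 5′ to 3′ on the strand of the gene, with matches in capitals.
Cdc20: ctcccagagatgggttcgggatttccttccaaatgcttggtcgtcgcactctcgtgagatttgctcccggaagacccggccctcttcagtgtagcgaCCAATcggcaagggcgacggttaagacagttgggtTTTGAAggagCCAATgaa
Top2a: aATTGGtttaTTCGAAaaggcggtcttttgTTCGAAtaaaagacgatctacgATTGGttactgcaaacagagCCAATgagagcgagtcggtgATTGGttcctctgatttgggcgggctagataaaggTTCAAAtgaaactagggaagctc
Ccnb2: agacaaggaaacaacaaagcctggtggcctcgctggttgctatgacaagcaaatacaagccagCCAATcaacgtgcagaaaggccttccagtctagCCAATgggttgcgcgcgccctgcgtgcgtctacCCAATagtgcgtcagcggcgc
Mki67: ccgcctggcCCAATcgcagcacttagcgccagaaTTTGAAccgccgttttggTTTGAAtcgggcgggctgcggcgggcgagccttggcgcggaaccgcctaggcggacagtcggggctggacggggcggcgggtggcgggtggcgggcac
Mcm6: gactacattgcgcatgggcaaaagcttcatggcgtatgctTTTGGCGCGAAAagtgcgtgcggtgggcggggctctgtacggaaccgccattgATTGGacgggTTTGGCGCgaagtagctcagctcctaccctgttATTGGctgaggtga
Cdk6: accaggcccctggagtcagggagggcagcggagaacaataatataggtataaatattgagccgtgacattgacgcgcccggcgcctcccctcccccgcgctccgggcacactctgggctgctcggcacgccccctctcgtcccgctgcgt

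The windows lie at chr4:118437344-118437493 (minus strand) for Cdc20, chr11:99024190-99024339 (minus strand) for Top2a, chr9:70421555-70421704 (minus strand) for Ccnb2, chr7:135716380-135716529 (minus strand) for Mki67, chr1:128359706-128359855 (minus strand) for Mcm6 and chr5:3343743-3343892 (plus strand) for Cdk6. Cdc20 has 2 CCAAT boxes and 1 CHR in these 150 bases, Top2a has 4 and 3, Ccnb2 has 3 CCAAT boxes, and Mki67 has 1 and 2. Mcm6 has 2 CCAAT boxes and 3 E2F matches, of which the first 2 overlap, and the window of Cdk6 holds none of these letters.

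Over the 250 bases, a CCAAT box was found in 15 of 17 mitosis genes (88.2%), 8 of 9 DNA synthesis genes (88.9%) and 2 of 10 G1 genes (20.0%), where 34.5% of 27025 RefSeq promoters hold one. A CCAAT box together with a CHR was found in 7 of 17 mitosis genes, 2 of 9 DNA synthesis genes and 0 of 10 G1 genes, against 6.21% of all promoters. E2F letters occurred in 3 of 9 DNA synthesis genes, 1 of 17 mitosis genes and 1 of 10 G1 genes, against 1.91% of all promoters. A match of letters is no measure of binding, and no binding was measured in these mice.

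Values for each gene are given below as CPM, in which the estimated counts of a gene are scaled to the same total over the genes tested in every mouse, with edgeR's TMM correction of library sizes. They are listed in the order of the TT numbers given above. CPM is not divided by gene length and compares mice within a gene only. Mean counts per mouse ran from 20.9 for Aurkb to 3123 for Ccnd2, so that the precision differs widely between genes. Fold changes are log2 values of HFD+mTAC over control with the standard error (SE) from edgeR, and adjusted p-values run over all 13296 genes. In parentheses after the values of a gene, the first number is this log2 fold change.

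Mki67, the antigen of the proliferation stain Ki-67, was listed at 16.1, 10.7, 10.8, 31.4 and 20.1 CPM in controls and at 27.8, 26.6, 33.99, 29.8 and 20.3 CPM in HFD+mTAC mice. Control TT-586 lay within the HFD+mTAC range, and the other 4 controls lay below all HFD+mTAC mice. The log2 fold change was 0.64 (SE 0.27, adjusted p = 0.54). Top2a, the topoisomerase that untangles replicated chromosomes, was at 5.71, 2.84, 5.09, 13.04 and 8.02 CPM in controls and at 12.8, 12.04, 13.8, 15.98 and 10.6 CPM in HFD+mTAC mice. Again 4 of 5 controls lay below every HFD+mTAC mouse, and TT-586 did not. Its log2 fold change was 0.92 (SE 0.31, adjusted p = 0.419).

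Cdc20 (chr4:118432901-118437352 on GRCm38, minus strand) activates the anaphase-promoting complex and is held by the spindle checkpoint. It was at 2.02, 1.84, 1.08, 2.54 and 1.89 CPM in controls and 5.45, 3.08, 6.15, 4.44 and 3.25 CPM in HFD+mTAC mice. The highest control (TT-586) lay below the lowest HFD+mTAC mouse (TT-589). Its log2 fold change of 1.26 (SE 0.27, adjusted p = 0.197) was the largest of the 44 genes. On the TPM scale, which divides by effective transcript length, the groups overlapped, with 0.595 ± 0.271 TPM in controls and 1.78 ± 1.83 TPM in HFD+mTAC mice (SD, n = 5 each).

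Of the kinases of the spindle checkpoint, Bub1b was at 2.54, 1.16, 1.86, 2.96 and 2.04 CPM in controls and 2.37, 3.45, 4.46, 4.58 and 3.13 CPM in HFD+mTAC mice, with a log2 fold change of 0.77 (adjusted p = 0.461). It was above all controls in 4 of 5 HFD+mTAC mice. Bub1 had a log2 fold change of 0.93 (SE 0.43, adjusted p = 0.605), with 1.13 ± 0.776 CPM in controls and 2.08 ± 0.598 CPM in HFD+mTAC mice (SD).

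The cyclins that drive Cdk1 were all higher on average. Ccna2, cyclin A2, was at 2.69, 2.31, 1.81, 7.89 and 6.21 CPM in controls and 6.66, 6.11, 11.5, 10.7 and 9.02 CPM in HFD+mTAC mice, with a log2 fold change of 1.09 (adjusted p = 0.443). Controls TT-586 and TT-587 were near the HFD+mTAC mice, and the other 3 were below all of them. Ccnb1, cyclin B1, was at 1.15, 0.736, 0.392, 2.33 and 1.101 CPM in controls and 3.46, 1.69, 2.54, 3.21 and 1.04 CPM in HFD+mTAC mice (1.08, adjusted p = 0.54), with TT-589 and TT-592 within the control range. Ccnb2, cyclin B2, was at 1.58, 0.946, 0.637, 2.75 and 2.595 CPM in controls and 3.203, 2.42, 6.15, 3.21 and 2.21 CPM in HFD+mTAC mice (1.03, adjusted p = 0.518), and TT-590 was the highest. Cdk1, the kinase itself, had 2.76 ± 1.57 CPM in controls and 4.61 ± 1.28 CPM in HFD+mTAC mice (SD), with a log2 fold change of 0.76 that missed the unadjusted threshold of 0.05 (adjusted p = 0.621).

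**Figure D2:**
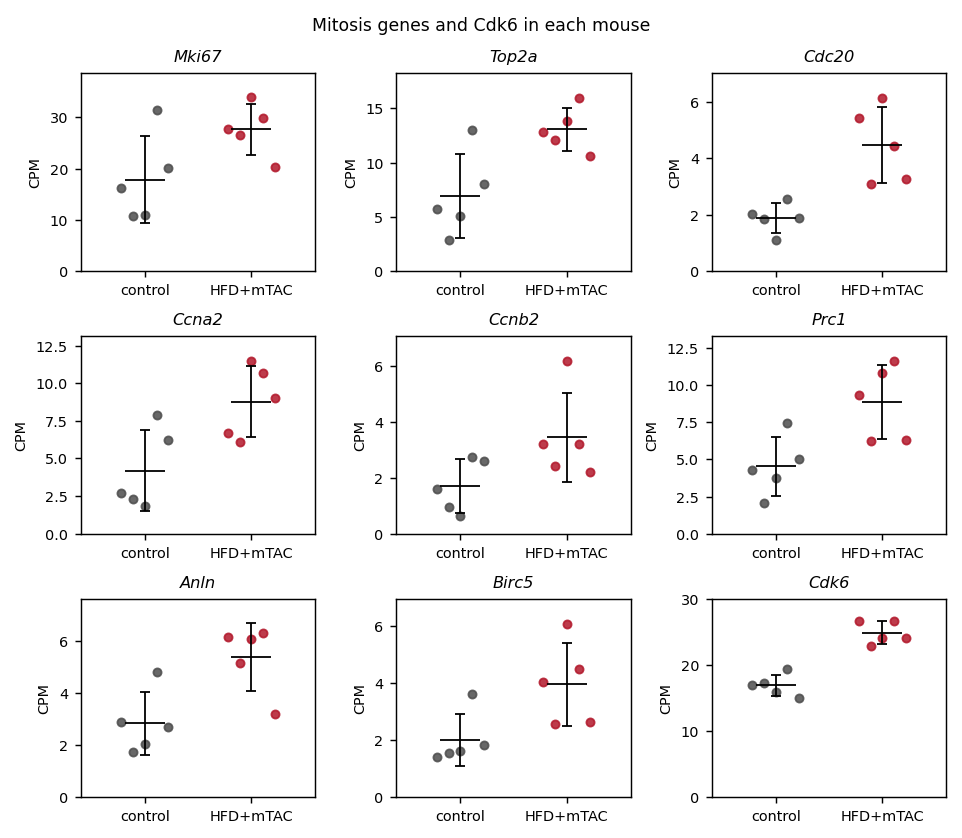
CPM of 8 mitosis genes and Cdk6 in each mouse, with 1 point per mouse (in TT order from left to right within each group) and bars for mean ± SD (5 mice per group). Only Cdc20 and Cdk6 show no overlap, and control TT-586 is the highest control in each of the 9 panels.

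The mitotic kinases and survivin were each higher at an unadjusted p under 0.05. Aurka, which builds the spindle poles, was at 0.624, 1.47, 1.32, 2.47 and 1.26 CPM in controls and 3.203, 2.904, 3.69, 2.53 and 1.596 CPM in HFD+mTAC mice (0.97, adjusted p = 0.443). Aurkb, the kinase that corrects chromosome attachment, was at 0.672, 0.368, 0.882, 1.198 and 1.57 CPM in controls and 1.47, 1.45, 1.61, 2.39 and 1.84 CPM in HFD+mTAC mice (0.93, adjusted p = 0.497). Aurka was above every control in 4 of 5 HFD+mTAC mice and Aurkb in 3 of 5. Birc5, survivin, is a partner of Aurkb and was at 1.39, 1.52, 1.62, 3.595 and 1.81 CPM in controls and 4.04, 2.54, 6.08, 4.51 and 2.64 CPM in HFD+mTAC mice (1.00, adjusted p = 0.401). TT-586 was the one control inside the HFD+mTAC range. Plk1, a kinase that acts from mitotic entry to cytokinesis, was at 1.34, 0.736, 0.686, 2.54 and 1.65 CPM in controls and 2.82, 1.09, 4.08, 3.14 and 1.903 CPM in HFD+mTAC mice (0.92, adjusted p = 0.6), and TT-589 and TT-592 lay within the control range.

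Among genes of the spindle, the kinetochore and cytokinesis, 5 of 8 had an unadjusted p under 0.05, all higher. Anln, the contractile ring protein anillin, was at 2.88, 1.73, 2.01, 4.79 and 2.67 CPM in controls and 6.15, 5.14, 6.08, 6.28 and 3.19 CPM in HFD+mTAC mice (0.94, SE 0.29, adjusted p = 0.359). Prc1, which bundles microtubules at the spindle midzone, was at 4.27, 2.05, 3.77, 7.47 and 5.03 CPM in controls and 9.29, 6.23, 10.8, 11.6 and 6.32 CPM in HFD+mTAC mice (0.98, SE 0.30, adjusted p = 0.364). For both genes, 4 of 5 controls were below all HFD+mTAC mice. Tpx2, a spindle assembly factor and activator of Aurka, was at 3.89, 2.52, 3.04, 6.06 and 5.58 CPM in controls and 5.45, 7.32, 9.23, 9.56 and 5.03 CPM in HFD+mTAC mice (0.80, adjusted p = 0.428). Kif11, the motor that pushes spindle poles apart, was at 1.92, 2.42, 2.06, 5.92 and 4.33 CPM in controls and 3.52, 4.900, 6.77, 6.01 and 5.59 CPM in HFD+mTAC mice (0.70, adjusted p = 0.6). Cenpe, a kinetochore motor, was at 1.68, 1.58, 1.47, 3.03 and 2.44 CPM in controls and 4.04, 2.48, 2.69, 3.55 and 2.95 CPM in HFD+mTAC mice (0.64, adjusted p = 0.525). TT-586 was the highest control for each of these 5 genes.

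The other 3 genes of that group had an unadjusted p over 0.3. Kif23, a midzone motor, had a log2 fold change of 0.33 (SE 0.35). Kif20a, a motor of cytokinesis, had one of 0.73 (SE 0.76), with 0 counts in control TT-584 and 6 counts in TT-588 of HFD+mTAC. Cenpa, the histone H3 variant of centromeres, was the one mitosis gene with a lower mean in HFD+mTAC mice (-0.13, SE 0.16). At 28.1 TPM it was also the mitosis gene with the highest level per deposited effective length.

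The mitosis genes also differed among mice of one group. Relative to the control median of each gene, the median over the 21 genes on the log2 CPM scale was 0.00 in TT-583, -0.60 in TT-584, -0.23 in TT-585, 0.91 in TT-586 and 0.32 in TT-587. It was 1.06 in TT-588, 0.71 in TT-589, 1.33 in TT-590, 1.30 in TT-591 and 0.61 in TT-592. Control TT-586 was thus above HFD+mTAC mice TT-589 and TT-592. TT-590 and TT-591 were among the 5 highest mice for 21 of 21 mitosis genes, and TT-586 for 17. The lowest value of a mitosis gene was in TT-584, TT-585 or TT-583 for 20 of the 21 genes (9, 7 and 4).

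**Figure D3:**
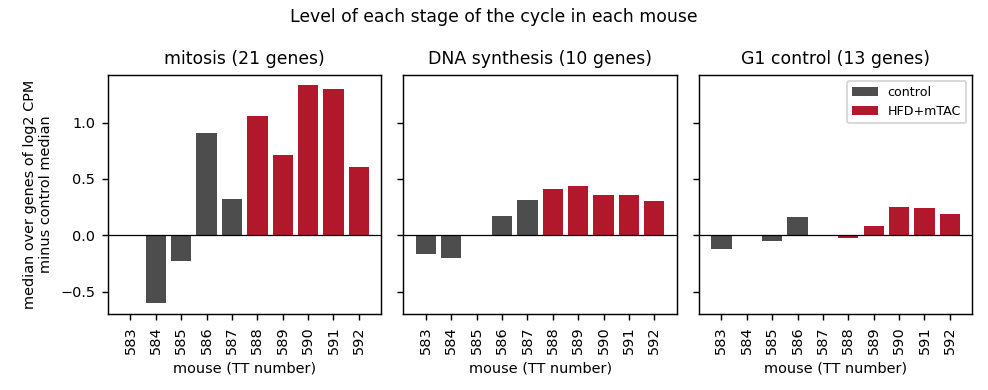
Median over the genes of each stage of the log2 CPM in a mouse minus the control median of the gene, 1 bar per mouse, for 21 mitosis, 10 DNA synthesis and 13 G1 genes. Control TT-586 reaches 0.91 for mitosis, inside the HFD+mTAC range of 0.61 to 1.33, and the G1 bars stay between -0.12 and 0.25.

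The count of 24 genes higher at an unadjusted p under 0.05 depended on single mice. It was 12 without control TT-583, 14 without control TT-584 and 14 without TT-590 of HFD+mTAC, and at most 26, without control TT-586. Without TT-583 and TT-584 together it was 4 (Cdk6, Cdc20, Prc1 and Anln), while all 24 genes remained higher in HFD+mTAC mice. The median log2 fold change of the mitosis genes was then 0.59 rather than 0.92, and 3 of 21 mitosis genes, 0 of 10 DNA synthesis genes and 1 of 13 G1 genes passed that threshold.

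Genes of DNA synthesis had a smaller median log2 fold change than those of mitosis (0.35 against 0.92). The MCM helicase has 6 subunits, and 4 of them were higher at an unadjusted p under 0.05. Mcm2 was at 10.2, 9.04, 13.4, 16.9 and 8.57 CPM in controls and 21.1, 14.4, 16.1, 14.8 and 14.00 CPM in HFD+mTAC mice (0.47, adjusted p = 0.54). Mcm3 was at 9.22, 9.56, 12.2, 13.7 and 13.4 CPM in controls and 14.3, 12.8, 15.8, 14.5 and 16.1 CPM in HFD+mTAC mice (0.34, adjusted p = 0.525). TT-586 was the highest control for both, and 4 HFD+mTAC mice were above all controls for Mcm3. Mcm5 was at 3.55, 4.89, 1.23, 4.37 and 5.66 CPM in controls and 3.01, 8.29, 10.9, 7.78 and 7.06 CPM in HFD+mTAC mice (0.92, adjusted p = 0.533), and TT-588 lay among the controls. Mcm7 was at 11.3, 8.88, 14.1, 14.2 and 12.5 CPM in controls and 16.9, 16.3, 16.00, 16.1 and 13.6 CPM in HFD+mTAC mice (0.37, SE 0.14, adjusted p = 0.471), with TT-592 as the lowest of the HFD+mTAC mice. Mcm6 (0.35, adjusted p = 0.621) and Mcm4 (0.16, adjusted p = 0.837) did not pass. Without TT-583 and TT-584, 0 of the 6 subunits passed and their median log2 fold change was 0.19 rather than 0.36, and with effective lengths as an offset only Mcm7 passed (0.59).

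Rrm2, the subunit of ribonucleotide reductase whose level follows S phase, was at 3.84, 2.58, 4.07, 9.73 and 5.35 CPM in controls and 16.4, 7.02, 10.5, 6.42 and 7.92 CPM in HFD+mTAC mice (0.93, adjusted p = 0.483). The highest value was in TT-588, and control TT-586 lay within the HFD+mTAC range. The other subunit, Rrm1, had a log2 fold change of 0.06 (SE 0.10, adjusted p = 0.926), with 18.7 ± 1.89 CPM in controls and 19.5 ± 1.66 CPM in HFD+mTAC mice (SD). Tyms, thymidylate synthase, had 0.33 (SE 0.25). Pcna, the sliding clamp of DNA polymerases, was the one gene of DNA synthesis with a lower mean in HFD+mTAC mice, at 40.1 ± 8.29 CPM in controls and 34.96 ± 7.17 CPM in HFD+mTAC mice (SD; -0.20, adjusted p = 0.818).

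In the control of G1, the kinase genes differed from each other. Cdk6 (chr5:3341485-3531008 on GRCm38, plus strand), a partner of D-type cyclins, was at 17.00, 17.2, 15.9, 19.4 and 15.02 CPM in controls and 26.7, 22.9, 24.1, 26.6 and 24.1 CPM in HFD+mTAC mice. Every HFD+mTAC mouse was above every control, and the spread within each group was small. Its log2 fold change of 0.56 (SE 0.10) had the smallest adjusted p of the 44 genes, 0.0895, which missed the threshold. Cdk6 kept an unadjusted p under 0.05 without each of the 10 mice in turn. The same held for Top2a, Ccna2, Mcm7, Birc5, Aurka, Bub1b, Cdc20, Prc1, Anln and Tpx2. Cdk4, the other partner of D-type cyclins, had a log2 fold change of 0.13 (SE 0.08, adjusted p = 0.766). At 148 TPM it was the highest of the 44 genes by the deposited effective lengths (405.9 to 449.5 bases for Cdk4). Cdk2, the partner of cyclin E, had -0.08 (SE 0.18).

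D-type cyclins, which activate Cdk4 and Cdk6, did not differ detectably. Ccnd1 was at 179, 165, 160.0, 212 and 197 CPM in controls and 154, 186, 240.0, 240.3 and 164 CPM in HFD+mTAC mice (0.11, SE 0.14, adjusted p = 0.902). Ccnd2 was at 152, 165, 221, 241 and 165 CPM in controls and 264, 184, 177, 157 and 191 CPM in HFD+mTAC mice (0.04, SE 0.16, adjusted p = 0.969). Groups overlapped for both, with Ccnd2 highest in TT-588 and Ccnd1 in TT-590 and TT-591. Ccnd3 was at 89.98, 107, 93.5, 97.9 and 97.5 CPM in controls and 85.9, 86.3, 110.4, 121 and 101 CPM in HFD+mTAC mice (0.05, SE 0.10, adjusted p = 0.935), with overlap. Per length, Ccnd3 was at 105 TPM and thus above Ccnd2 (9.91 TPM) and Ccnd1 (9.36 TPM), on average over the 10 mice. This order rests on the deposited effective lengths. For Ccnd2 (17540 to 22370 bases) and Ccnd1 (16230 to 27820 bases) these exceeded the longest annotated transcripts (6330 and 3740 bases). Ccne1, cyclin E1, had a log2 fold change of 0.19 (SE 0.28).

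Of the CDK inhibitors, Cdkn1a (p21), a target of p53, was at 121, 247, 68.3, 50.5 and 52.3 CPM in controls and 55.99, 44.3, 95.2, 80.6 and 77.2 CPM in HFD+mTAC mice. TT-584 and TT-583 were the highest of the 10 mice, and the other 3 controls lay within the HFD+mTAC range. The log2 fold change of -0.61 (SE 0.40, adjusted p = 0.759) became 0.30 without both mice. Cdkn1b (p27) was at 59.4, 55.4, 49.3, 61.4 and 81.4 CPM in controls and 49.5, 56.5, 57.5, 62.96 and 43.8 CPM in HFD+mTAC mice (-0.18, adjusted p = 0.79), with overlap. Cdkn2c (p18), an inhibitor of Cdk4 and Cdk6, was at 11.6, 10.3, 12.5, 11.8 and 15.1 CPM in controls and 15.6, 14.3, 14.2, 15.1 and 14.1 CPM in HFD+mTAC mice (0.26, SE 0.12, adjusted p = 0.594). Only control TT-587 reached the HFD+mTAC values.

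The transcription factor E2f1, which turns on genes of S phase, was at 1.39, 1.63, 1.67, 6.696 and 1.57 CPM in controls and 6.15, 3.57, 8.15, 5.12 and 4.36 CPM in HFD+mTAC mice (1.09, SE 0.44, adjusted p = 0.514). In 4 of 5 controls it was below all HFD+mTAC mice, and control TT-586 exceeded 4 of 5 of them. Rb1, a pocket protein that holds E2F factors, was at 47.1, 47.3, 52.2, 55.4 and 51.8 CPM in controls and 50.9, 51.4, 43.1, 43.5 and 50.5 CPM in HFD+mTAC mice (-0.08, SE 0.08), with overlap. Rbl2 (p130), the pocket protein of the DREAM complex in resting cells, was at 20.6, 19.6, 16.02, 21.99 and 0.472 CPM in controls and 25.6, 25.4, 0, 1.09 and 22.4 CPM in HFD+mTAC mice. It was near 0 in TT-587, TT-590 and TT-591 (6, 0 and 16 counts) and at 312 to 430 counts in each of the other 7, so that its fold change of -0.08 has an SE of 0.91.

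**Figure D4:**
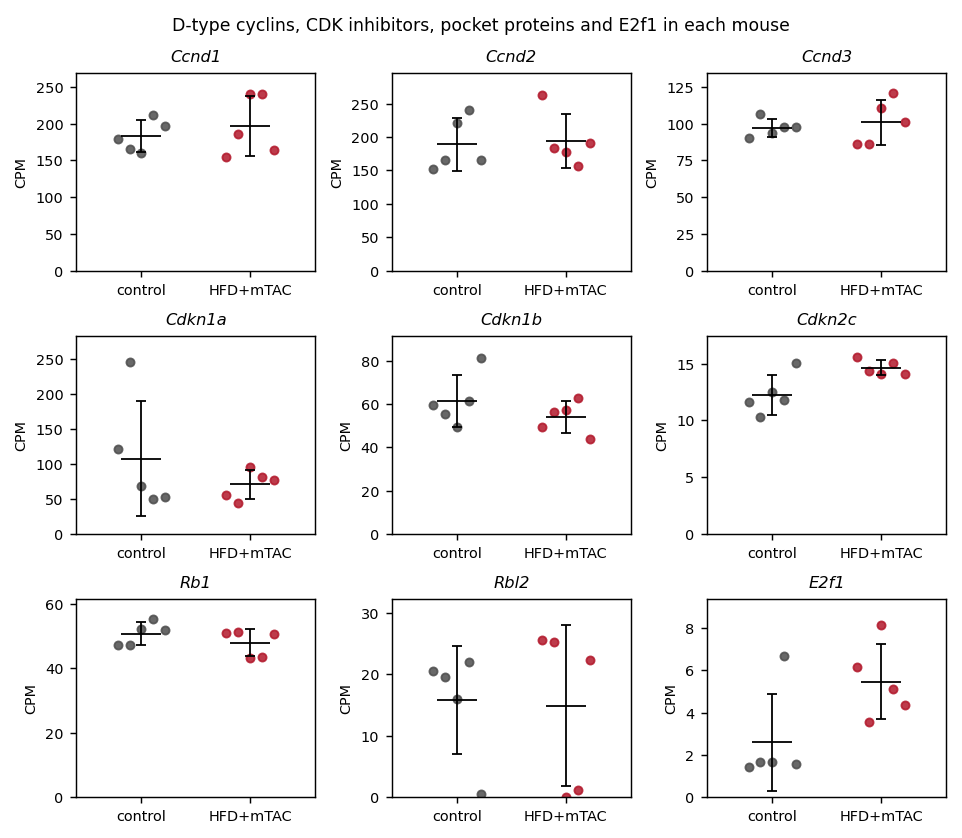
CPM of the 3 D-type cyclins, 3 CDK inhibitors, 2 pocket proteins and E2f1 in each mouse, with 1 point per mouse (in TT order from left to right within each group) and bars for mean ± SD (5 mice per group). Groups overlap in every panel. Cdkn1a is highest in 2 controls (121 and 247 CPM), and Rbl2 is near 0 in 3 mice.

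The deposited effective lengths varied between mice, which bears on TPM and on fold changes that allow for length. For 14 of the 44 genes the longest effective length was over 2 times the shortest, as for Aurka (1067 to 12200 bases) and Cdc20 (942.7 to 5427 bases). For 9 genes the effective length exceeded the longest annotated transcript in every mouse, as for Cdk6 (27980 to 36920 bases, against 11525) and Ccnd1 (16230 to 27820 bases, against 3740), whereas an effective length is usually shorter than the transcript. For 24 of the 44 genes, these 9 included, the effective length did so in some or all mice. With lengths as an offset in edgeR, 13 genes kept an unadjusted p under 0.05 rather than 24, all 13 among the 24. Of all 13296 genes, 534 were higher at that threshold with the offset, against 603 without it. Cdk6 then had a log2 fold change of 0.44 (adjusted p = 0.527) and Cdc20 one of 1.51 (adjusted p = 0.635). Bub1b turned from 0.77 to -0.12, Aurka went from 0.97 to 0.30, and Tpx2 from 0.80 to 0.30.

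**Figure D5:**
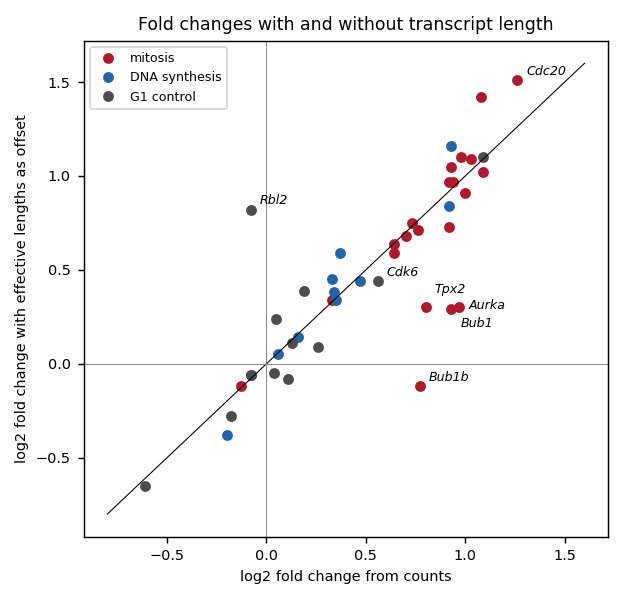
Log2 fold change (HFD+mTAC over control) of each of the 44 genes from counts alone (horizontal axis) and with effective lengths as an offset (vertical axis), with the line of equality and colors for the stage of the cycle. Most genes lie near the line, and Bub1b, Bub1, Tpx2 and Aurka lie well below it, whereas Rbl2 (-0.08 from counts, 0.82 with the offset) and Ccnb1 (1.08 and 1.42) lie above it.

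Other genes of the cycle, taken from lists written by function, were read in the same fit, and none of them had an adjusted p under 0.05. Of 45 other mitosis genes tested, 43 were higher and 21 had an unadjusted p under 0.05, all higher, with a median log2 fold change of 0.75. Without TT-583 and TT-584, 8 were higher at that threshold, 2 were lower (Cenpf at -0.83 and Pttg1, named after its values were seen, at -0.29) and the median was 0.49, and with lengths as an offset 10 were higher and 0 lower. Among them were Kif4, a chromosome motor (1.12, SE 0.32, adjusted p = 0.309), and Foxm1, a transcription factor of mitosis genes (0.94, SE 0.27, adjusted p = 0.33). The 2 that were lower were Cenpf, a kinetochore protein (-0.45, SE 0.31), and Incenp, a partner of Aurkb (-0.27, SE 0.83). Groups did not overlap for 3 of these genes, Foxm1, Cdca2 and Kif22, of which the last 2 are named after their values were seen.

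Of 23 other replication genes tested, 19 were higher and 5 had an unadjusted p under 0.05, all higher, with a median of 0.37. Of the 23, 0 passed without TT-583 and TT-584, and the median was 0.18. Uhrf1, which maintains DNA methylation, was at 0.82 (SE 0.31, adjusted p = 0.479) and Tk1, thymidine kinase, at 0.69 (SE 0.27, adjusted p = 0.509). Gmnn (-0.15, adjusted p = 0.692) and Rfc4 (-0.23, adjusted p = 0.79) were on the other side of 0.

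The anaphase-promoting complex, whose subunits are also present in resting cells, had 0 of 15 genes with an unadjusted p under 0.05 and a median of 0.02. Anapc1 was at 0.14 and Anapc2 at 0.04, and Cdc16 was at -0.10 and Anapc4 at -0.06. Of 16 other E2F, pocket protein and DREAM genes, 11 were higher, 3 with an unadjusted p under 0.05, and the median was 0.11. At that threshold 1 was higher (Lin9) and 1 lower (Fbxw7) without TT-583 and TT-584. Lin9, a subunit of the MuvB core, was at 2.35 to 4.51 CPM in controls and 4.67 to 6.53 CPM in HFD+mTAC mice without overlap (0.77, SE 0.21, adjusted p = 0.277). DESeq2 gave Lin9 an adjusted p of 0.0455. It was the 1 gene that DESeq2 called of the 126 tested in these further lists, where DESeq2 called 120 of all 13296 genes. E2f7 was at 0.69 (adjusted p = 0.415). Fbxw7 (-0.26) and Rbbp4 (-0.10) had the smallest p-values of the genes that were lower.

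Of 12 other CDK inhibitors and regulators of D-type cyclins, 6 were higher and 6 lower, with none at an unadjusted p under 0.05. Cdkn3 (0.78, SE 0.73), Cdkn2b (0.61, SE 0.45), Ccnh (-0.15) and Mnat1 (-0.05) had the smallest p-values in each direction. Of 15 genes of p53 and its targets, 10 were higher and the median was 0.02, whereas 6 were higher without TT-583 and TT-584 and 0 passed in either direction, Btg2 included. Btg2, an antiproliferative gene, was the one gene of all these lists that was lower at an unadjusted p under 0.05 (-0.52, SE 0.15, adjusted p = 0.335), and Sesn1 was higher (0.25, adjusted p = 0.504). Bbc3 (-0.34) and Eda2r (0.23) did not pass.

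Markers of cell types were summed on the TPM scale to give the makeup of each library beside these results. Cardiomyocyte markers (6 of 6 tested) summed to 126800 to 147700 TPM in controls and 120200 to 145000 TPM in HFD+mTAC mice (p = 0.183, exact permutation test). In the edgeR fit on counts, 0 of these 6 were higher in HFD+mTAC mice, and their median log2 fold change was -0.21. Actc1 (-0.25) and Tnni3 (-0.22) had an unadjusted p under 0.05, the other cardiomyocyte markers did not, and 0 of the 6 had an adjusted p under 0.05. Fibroblast markers (5 of 5) were at 621 to 899 and 583.5 to 809.9 TPM (exact p = 0.444), endothelial markers (5 of 5) at 295 to 397 and 294 to 467 TPM (exact p = 0.254), and pericyte and smooth muscle markers (5 of 6) at 431 to 644 and 397 to 734 TPM (exact p = 0.587). Macrophage markers (6 of 7) were at 139 to 215 TPM in controls and 177 to 217 TPM in HFD+mTAC mice (exact p = 0.405), and neutrophil markers (3 of 4) at 23.4 to 39.2 and 3.94 to 38.7 TPM (exact p = 0.0873). In the edgeR fit, 0 of the 3 neutrophil markers were higher in HFD+mTAC mice (median log2 fold change -0.74). S100a9 (-1.10) had an unadjusted p under 0.05 and an adjusted p of 0.519. T cell markers (3 of 6) stayed at or below 3.01 TPM and B cell markers (3 of 4) at or below 3.69 TPM. Erythroid markers (5 of 5) were at 493 to 6325 and 589.3 to 6658 TPM (exact p = 0.77). The atrial marker tested, Myl4, was at 7.82 to 17.6 and 5.86 to 9.05 TPM (exact p = 0.0476, adjusted over the 10 lists 0.436). Markers of thymocytes and adipocytes did not pass the filter. The part of any of these cells in the differences above was not tested.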

How the data were processed

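Per the labels and the paper, poly(A) RNA of the left ventricle was sequenced as stranded libraries, given as single-end 100-base reads in the labels and as paired-end reads in the paper. Reads were trimmed with fastp and quantified with Salmon 1.6.0 (from the submitters' processing notes) on GENCODE transcripts of GRCm38.p6. The processing notes also list the human build hg38, although the samples are mouse. The authors deposited expected counts per gene from tximport without normalization, of which 20.07% were not whole numbers, the TPM values, which are scaled within each mouse and corrected for length, and average effective transcript lengths in bases.

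Counts were rounded. The test was limited to protein-coding genes outside the mitochondrial genome that had 1 count or more in 90% of the mice. The deposited TPM values were rescaled to the same total over these genes in every mouse, also for limma. Symbols matched GENCODE M21 on the same build for 27812 of 29564 genes, with 859 more matched by an older symbol and 893 unmatched, and 19 symbols are numbers. Group came from the title of each sample, which reads Control or HFpEF+Vehicle. Mice with the second title are called HFD+mTAC here. All 10 mice entered 1 fit without covariates in R 4.3.3 with edgeR 4.0.16 (TMM, quasi-likelihood test, Benjamini-Hochberg adjusted p under 0.05). For single values, exact permutation tests (two-sided) enumerated 252 arrangements of the mice, and 0.0079 is the smallest p they can give. Within a group, the smallest chi-square per degree of freedom between libraries was 13.3, so that no library repeats another. The tests were also run on simulated data.

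Alternatives were DESeq2 size factors, DESeq2 1.42.0, limma 3.58.1 on log2(TPM + 1) and log2(TPM + 0.1), other filters, all biotypes, lengths as an offset and the omission of each mouse. Median effective length as a covariate and the omission of TT-583 and TT-584 together were added after seeing the data. Per-mouse values are given for every cell cycle gene with an unadjusted p under 0.05 or without overlap, and for Mki67, Top2a, the D-type cyclins, the CDK inhibitors, Rb1, Rbl2 and E2f1. Of each further list, the 2 genes with the smallest p in each direction are named. The genes and lists were chosen with earlier results of these data known. The macrophage marker Adgre1 was not used here.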

Additional observations from a re-analysis of the deposited data

Results flagged for a closer look

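In 7 of the 88 groups of 5 values looked at (44 genes in each group of mice), one mouse stood apart from the other 4 by Dixon's criterion, and chance alone gives about 1 in 20. In control TT-586, E2f1 was at 6.70 CPM (nearest other control 1.67 CPM) and Birc5 at 3.59 CPM (nearest 1.81 CPM), both on the side of the HFD+mTAC mice. In control TT-587, Cdk2 was at 20.2 CPM (nearest 13.5 CPM) and Rbl2 at 0.472 CPM (nearest 16.0 CPM). Among HFD+mTAC mice, Ccnb2 was at 6.15 CPM in TT-590 (nearest 3.21 CPM), Mcm7 was at 13.6 CPM in TT-592 (nearest 16.0 CPM), and Pcna was at 47.4 CPM in TT-592 (nearest 34.4 CPM).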

How the results depend on the processing

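No paired analysis was possible because the labels give each mouse its own number. The count of 24 cell cycle genes higher at an unadjusted p under 0.05 was 13 with the length offset and 4 without TT-583 and TT-584 together, and stayed between 19 and 27 under the other alternatives that kept all mice. It ran from 12 to 26 with one mouse left out. With one mouse left out, 0 cell cycle genes were lower at that threshold and 0 had an adjusted p under 0.05, and 2 to 12 did not overlap. DESeq2 called 2 of them at an adjusted p under 0.05, Cdk6 (0.55, adjusted p = 0.000159) and Cdc20 (1.26, adjusted p = 0.00493). With lengths as an offset, 1 cell cycle gene did not overlap. The share of all genes without overlap was not computed with a mouse left out or with the offset. Smaller groups separate more easily by chance, so the counts with a mouse left out cannot be set against the share given for all mice.

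Of all genes, the 8 with an adjusted p under 0.05 became 120 with DESeq2, 1 with limma at either pseudocount, 1 with the length offset, 4 without TT-583 and TT-584, and 1 to 9 with one mouse left out. The 603 higher genes became 398 without TT-583 and TT-584 and 472 to 682 with one mouse left out. The 495 lower genes became 268 and 285 with limma (pseudocounts 1 and 0.1), 335 without TT-583 and TT-584, and 372 to 573 with one mouse left out. Of the further lists, the 30 higher genes became 17 and 18 with limma, 13 with the offset, 9 without TT-583 and TT-584 and 17 to 43 with one mouse left out, and the 1 lower gene became 3 with the offset, 3 without TT-583 and TT-584, and 1 to 2 with one mouse left out.

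Of the 44 genes, those whose log2 fold change turned sign are named here. With limma at pseudocounts 1 and 0.1 and with the offset, Ccnd1 was at -0.07, -0.08 and -0.08, Ccnd2 at -0.02, -0.02 and -0.05, and Rbl2 at 0.46, 0.03 and 0.82. Bub1b was at -0.03 and -0.00 with limma and at -0.12 with the offset. Without TT-583 and TT-584, Ccnd2 was at -0.11, Rrm1 at -0.01, Mcm4 at -0.00, Cdkn1a at 0.30 and Rbl2 at 0.21. With one mouse left out, log2 fold changes ran from -0.38 to 0.23 for Rbl2 (above 0 without TT-583, TT-584, TT-586, TT-590 or TT-591), from -0.09 to 0.14 for Ccnd2 (below 0 without TT-583 or TT-588, and at -0.00 without TT-584 or TT-587), from -0.20 to 0.09 for Cdk2 and -0.19 to 0.02 for Cenpa (above 0 without TT-587), and from -0.02 to 0.10 for Ccnd3 (below 0 without TT-591). The cause was not tested.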
